A study of Mus musculus with 8 samples.

Results

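The receptors of the common gamma chain cytokines were followed across 8 arrays of mouse CD4 T cells labelled as wild type or as deleted for Bcl6. The set comprised 8 genes by name: Il7r, Il2ra, Il2rb, Il2rg, Il4ra, Il21r, Il9r and Il15ra. Probe sets were taken where the platform annotation gave the gene as their only symbol, and 7 of the 8 genes, out of 19938 genes named in this way, had such a probe set. Each of the 7 had 1 probe set, and the signal of Il2rg, the gene of the shared chain itself, is not analysed here. Il9r lay under the expression filter, so 6 of the 8 genes were among the 11926 genes tested.

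Cells of both groups were naive CD4 T cells sorted from mice, 4 arrays from wild-type animals (WT) and 4 from animals with a conditional Bcl6-/- deletion in T cells (KO). Both groups were stimulated for 24 hours through CD3 and CD28, in medium that held IL-6 and IL-21 and antibodies against TGF beta, interferon gamma and IL-4. The labels call the cultured cells follicular helper T (Tfh) cells. The Cre driver, the strain and the age of the mice are not given in the sources used here, and neither is the number of animals behind each group, so a p-value reflects the spread of these samples only, part of which may be technical.

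The common gamma chain pairs with a private chain for each of IL-2, IL-4, IL-7, IL-9, IL-15 and IL-21. For IL-2 and IL-15 it also pairs with a shared beta chain. The gamma chain binds Jak3, and a chain paired with it binds Jak1. The kinases activate STAT5 for IL-2, IL-7, IL-9 and IL-15, STAT6 for IL-4 and mainly STAT3 for IL-21. In CD4 T cells IL-7 maintains naive and memory cells, IL-2 drives growth and the upkeep of regulatory T cells, and IL-21 is both made and sensed by Tfh cells. Bcl6, a transcriptional repressor needed for the Tfh fate, is itself opposed by IL-2 and STAT5 signals.

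The arrays had array medians between 7.35 and 7.42 on the log2 scale, and pairwise correlations over tested genes between 0.986 and 0.998. KO replicate 1 stood apart: its median deviation from its group mean was 0.115, against 0.035 to 0.0725 in the other 7 arrays, and the array closest to it was WT replicate 3. For the receptors and listed genes, tests whose outcome changes without it are given both ways. Bcl6 was higher in KO, 9.08 to 9.19 against 8.61 to 8.91. Whether its probe set lies in the deleted part is unknown, so this gene is no check of the genotype, and directions are those of the labels. The T cell genes Cd3e (12.97 to 13.14) and Cd4 (12.38 to 12.56) were high in all 8 arrays. Ncr1 of NK cells, Ms4a1 of B cells, Csf1r of myeloid cells and Kit of mast cells lay under the filter in every array. Other markers went the other way: Eomes of NK cells, Cd79b of B cells and the CD8 genes Cd8a and Cd8b1 were above the filter in all 8 arrays.

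None of the 6 tested receptor genes passed the threshold (limma adjusted p under 0.05) in the comparison of KO with WT, where 1.32% of all tested genes passed. At an unadjusted p under 0.05 there were 3 of 6, against 1980 of 11926 over all genes. The KO and WT values did not overlap in the same 3 genes, Il7r, Il21r and Il2ra, while 10.8% of all tested genes showed no overlap. The 6 differences had a median of 0.07 on the log2 scale, and their median size was 0.0938, against -0.02 and 0.065 over all tested genes. Il7r and Il2ra were on the high side in KO, Il21r on the low side. In such bulk samples, fewer cells of a type and less RNA per cell cannot be told apart.

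**Figure D1:**
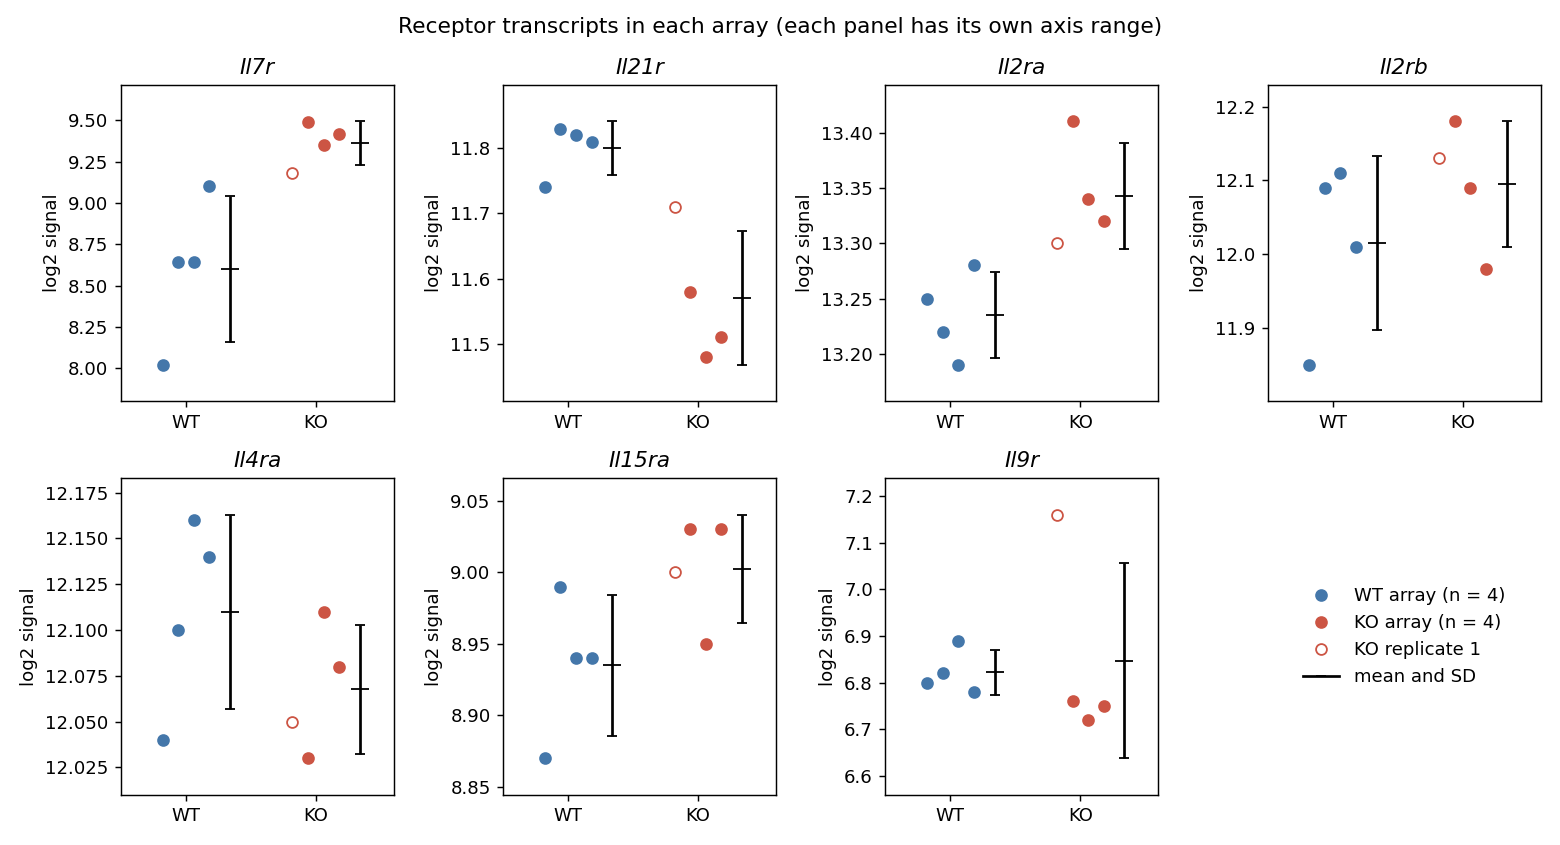
Log2 signal (y axis) of the 7 receptor genes in each WT (blue) and KO (red) array, with the mean and SD of 4 arrays in black and KO replicate 1 as an open circle; axis ranges differ between panels. The groups separate in Il7r, Il21r and Il2ra, and the KO replicate 1 value of Il9r, 7.16, lies above all others of that gene.

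Il7r encodes the private chain of the IL-7 receptor, which also serves the receptor of the cytokine TSLP. Its log2 signal was 8.02, 8.64, 8.64 and 9.10 in WT replicates 1 to 4 and 9.18, 9.49, 9.35 and 9.42 in KO replicates 1 to 4. Every KO array lay above every WT array, by as little as 0.08 between KO replicate 1 and WT replicate 4. Among the WT arrays, replicate 1 was the lowest (8.02) and replicate 4 the highest (9.10). The means were 8.60 ± 0.443 and 9.36 ± 0.133 (SD, n = 4), so the WT arrays spread more widely than the KO arrays. The difference was 0.76 ± 0.185 (SE), a 1.69-fold higher level in KO, with a 95% confidence interval of 0.35 to 1.17 (limma adjusted p = 0.0794; exact permutation p = 0.0286, two-sided, the smallest that 4 against 4 can give). In size it exceeded 99.8% of the tested genes, and it had the 322nd smallest p. Without KO replicate 1 the difference was 0.82 (limma adjusted p = 0.0381), and without WT replicate 4 it was 0.93 (limma adjusted p = 0.0355), past the threshold in both cases. Without WT replicate 1 it was 0.57, and in the 6 fits that left out any other array the threshold was not passed (limma adjusted p up to 0.219).

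Il21r encodes the private chain of the receptor for IL-21, 1 of the cytokines in the medium. The WT arrays read 11.74, 11.83, 11.82 and 11.81 and the KO arrays 11.71, 11.58, 11.48 and 11.51, in replicate order. All KO values were below all WT values, and KO replicate 1 was the KO array closest to WT, 0.03 below the lowest WT value. The level was 11.80 ± 0.0408 in WT and 11.57 ± 0.102 in KO (SD, n = 4), a difference of -0.23 ± 0.0576 (SE; 95% confidence interval -0.36 to -0.10; limma adjusted p = 0.0851; exact permutation p = 0.0286, two-sided). This is a 1.17-fold lower level, larger in size than in 94.8% of the tested genes. Without KO replicate 1 the difference was -0.28 ± 0.045 (SE) and passed (limma adjusted p = 0.0104). It missed the threshold in each of the 7 other fits with 1 array left out (limma adjusted p up to 0.26), with differences between -0.25 and -0.20.

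**Figure D2:**
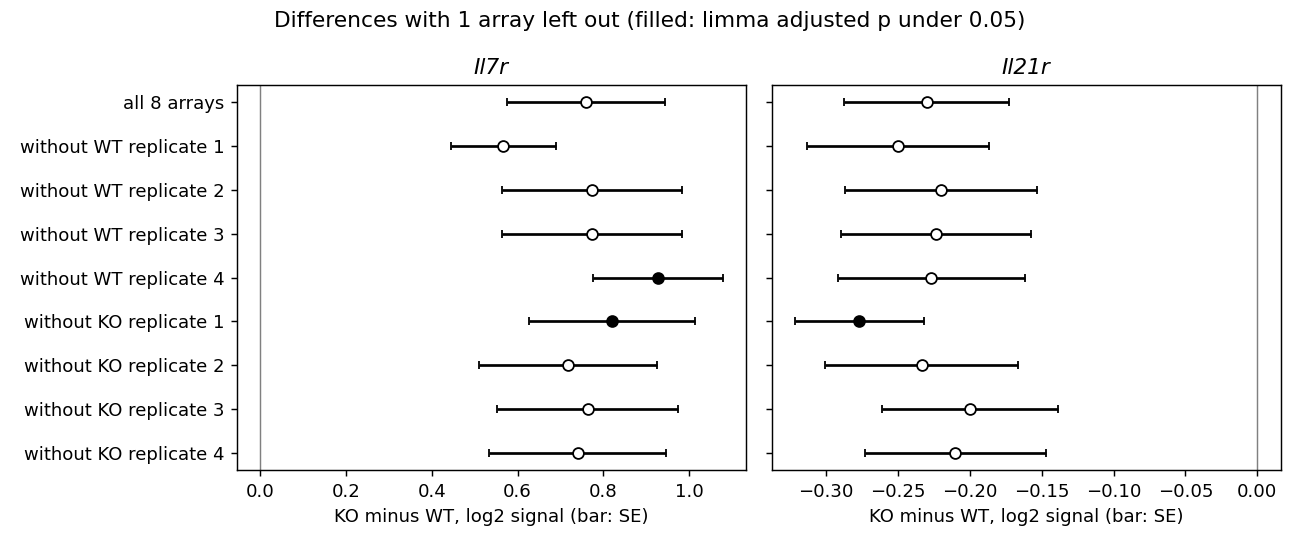
KO minus WT difference in log2 signal (x axis, bars are SE) of Il7r and Il21r with all 8 arrays and with 1 array left out in turn (y axis); filled points have a limma adjusted p under 0.05. Il7r stays between 0.57 and 0.93 and passes without WT replicate 4 or KO replicate 1, and Il21r stays between -0.28 and -0.20 and passes without KO replicate 1.

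Il2ra encodes CD25, the alpha chain that raises the affinity of the IL-2 receptor and is induced when T cells are activated. It read 13.25, 13.22, 13.19 and 13.28 in the WT arrays and 13.30, 13.41, 13.34 and 13.32 in the KO arrays, in replicate order. The groups were separated by 0.02, between WT replicate 4 and KO replicate 1. The means were 13.24 ± 0.0387 and 13.34 ± 0.0479 (SD, n = 4). The difference of 0.11 ± 0.0452 (SE; 95% confidence interval 0.01 to 0.21) did not pass (limma adjusted p = 0.268; exact permutation p = 0.0286, two-sided), and it was larger in size than in 72.1% of the tested genes. Without KO replicate 1 it was 0.12 (limma adjusted p = 0.117).

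The sequence upstream of the start site is shown for these 3 genes, the members whose groups did not overlap. The RefSeq promoter table (GRCm38.p6) held entries for 7 of the 8 receptor genes, and the 250 bases before the start site were searched on both strands for 4 motifs. These were TTCNNNGAA, the palindromic core bound by STAT factors whose letters also match the Bcl6 motif, GTAAACA of forkhead factors, ACTTCC of ETS factors and TGTGGT of Runx factors. Each run is given 5′ to 3′ on the strand of the gene, with motif matches in capitals. Il7r lies at chr15:9529877-9530126 (minus strand), Il21r at chr7:125603179-125603428 (plus strand) and Il2ra at chr2:11642542-11642791 (plus strand).
Il7r: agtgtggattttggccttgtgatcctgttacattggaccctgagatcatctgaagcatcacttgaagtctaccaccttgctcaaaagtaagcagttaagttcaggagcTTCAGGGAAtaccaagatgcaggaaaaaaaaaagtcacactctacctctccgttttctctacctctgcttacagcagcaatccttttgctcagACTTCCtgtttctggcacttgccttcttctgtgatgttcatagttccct
Il21r: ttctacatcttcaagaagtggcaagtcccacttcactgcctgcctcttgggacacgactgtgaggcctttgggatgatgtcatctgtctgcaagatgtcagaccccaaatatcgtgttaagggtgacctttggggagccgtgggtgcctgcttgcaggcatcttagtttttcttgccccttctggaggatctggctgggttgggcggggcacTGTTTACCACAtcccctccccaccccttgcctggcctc
Il2ra: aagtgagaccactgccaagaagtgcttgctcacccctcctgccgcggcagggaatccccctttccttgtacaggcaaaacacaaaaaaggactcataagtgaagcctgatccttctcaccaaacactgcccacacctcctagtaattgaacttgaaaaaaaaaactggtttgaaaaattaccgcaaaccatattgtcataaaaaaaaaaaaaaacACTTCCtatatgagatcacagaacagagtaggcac

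The Il7r window held the STAT and Bcl6 type motif as TTCAGGGAA, beginning 142 bases before the start site, and ACTTCC, beginning 49 bases before it. Il21r held the forkhead motif on the reverse strand 38 bases before its start site and the Runx motif on the reverse strand 33 bases before it, and the matches share letters. Il2ra held ACTTCC 35 bases before its start site. Of the other receptor genes searched, Il9r and Il2rg each held the Runx motif, 83 and 227 bases before the start site. Il4ra and both windows of Il15ra held none of the motifs. In chromosome coordinates, the start site minus the edge of the annotated gene was 177 for Il21r, -65 for Il7r and 0 for Il2ra. The start sites of Il21r and Il7r thus lay inside the annotated gene, as did both Il21r matches and the Il7r ACTTCC. Among all 32851 promoter windows of this length, TTCNNNGAA was found in 7.02%, GTAAACA in 3.17%, ACTTCC in 19.7% and TGTGGT in 14.0%. A match describes the letters of the window and shows no binding. The arrays measured transcripts only.

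Il2rb encodes the beta chain shared by the receptors for IL-2 and IL-15. Its values were 11.85, 12.09, 12.11 and 12.01 in WT and 12.13, 12.18, 12.09 and 11.98 in KO, in replicate order. The groups overlapped, and the lowest value was that of WT replicate 1. The difference was 0.08 ± 0.0685 (SE; 95% confidence interval -0.07 to 0.23; limma adjusted p = 0.639; exact permutation p = 0.371, two-sided).

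Il15ra encodes the alpha chain that binds IL-15 and can present it to neighbouring cells. It read 8.87, 8.99, 8.94 and 8.94 in WT and 9.0, 9.03, 8.95 and 9.03 in KO. KO replicate 3 lay inside the WT range and the other KO arrays above it. The difference was 0.07 ± 0.0454 (SE; 95% confidence interval -0.03 to 0.17; limma adjusted p = 0.526; exact permutation p = 0.0571, two-sided). Il15ra is the next protein-coding gene to Il2ra on chromosome 2.

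Il4ra encodes the alpha chain of the IL-4 receptor, whose ligand was neutralised in the culture. It read 12.04, 12.10, 12.16 and 12.14 in WT and 12.05, 12.03, 12.11 and 12.08 in KO, in replicate order. The ranges overlapped, and the difference was -0.04 ± 0.0456 (SE; 95% confidence interval -0.14 to 0.06; limma adjusted p = 0.726; exact permutation p = 0.257, two-sided). Il4ra and Il21r are likewise neighbouring protein-coding genes, on chromosome 7.

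Il9r encodes the private chain of the IL-9 receptor. Its values were 6.80, 6.82, 6.89 and 6.78 in WT and 7.16, 6.76, 6.72 and 6.75 in KO, in replicate order. The filter was passed by KO replicate 1 alone, and the other 3 KO arrays lay below all 4 WT arrays. The means were 6.82 ± 0.0479 and 6.85 ± 0.209 (SD, n = 4; exact permutation p = 1, two-sided), and no adjusted p is given for a gene under the filter.

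**Figure D3:**
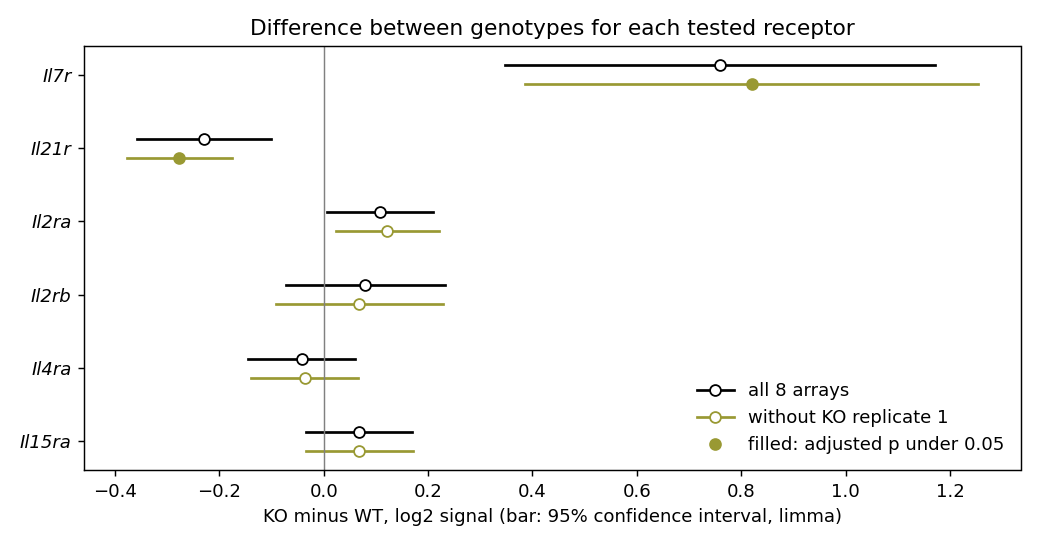
KO minus WT difference in log2 signal (x axis, bars are 95% confidence intervals) of the 6 tested receptor genes (y axis), over all 8 arrays (black) and without KO replicate 1 (olive); filled points have a limma adjusted p under 0.05. Intervals of Il2rb, Il4ra and Il15ra include 0 in both fits, and Il7r and Il21r pass without KO replicate 1.

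Leaving out KO replicate 1 called 2 of the 6 receptor genes, Il7r higher and Il21r lower, where 6.56% of all tested genes were called. Over all 8 arrays the 95% confidence intervals of the genes with overlapping groups reached 0.23 for Il2rb, 0.17 for Il15ra and -0.14 for Il4ra on the log2 scale. WT replicate 1 held the lowest WT value in 5 of the 6 receptor genes, all but Il2ra, and in 25 of the 34 pathway genes described next that had a single lowest WT array (73.5%), against 28.1% of all tested genes. The part of this array in the width of the WT range was not tested beyond the fits that leave it out.

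The rest of the pathway was read from 46 listed genes, of which 37 were tested. None passed the threshold, where 1.32% of all tested genes did. An unadjusted p under 0.05 in limma was found in 11 of 37, against 1980 of 11926 over all tested genes. The differences were negative in 27 and positive in 10, against 6905 negative and 5021 positive over all tested genes. Their median was -0.06, against -0.02 over all tested genes. The groups did not overlap in 9 of the 37 (24.3%), against 10.8% of all tested genes. Without KO replicate 1, 3 of the 37 fell, Stat3, Stat5a and Klf2, where 6.56% of all tested genes were called.

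Among the ligands, 2 of 7 genes were tested. Il2, the growth factor that activated T cells make, read 11.21, 11.18, 11.28 and 10.92 in WT and 10.64, 10.99, 10.69 and 10.59 in KO, in replicate order. Only KO replicate 2 and WT replicate 4 crossed, and the difference of -0.42 had a limma adjusted p of 0.0782 (exact permutation p = 0.0571, two-sided). Il21 read 12.21 to 12.35 in WT and 12.37 to 12.45 in KO, with no overlap and a difference of 0.115 (limma adjusted p = 0.268). Il4, Il7, Il9, Il15 and Tslp were not tested, because at most 1 array passed the filter in each. Of the partner chains outside the set, Crlf2, which joins Il7r in the TSLP receptor, differed by -0.12 (limma adjusted p = 0.408), and Il13ra1 and Il13ra2 lay under the filter in all arrays.

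The STAT genes were on the low side in KO. Stat3, which carries the IL-21 signal, read 11.82, 11.87, 11.92 and 11.82 in WT and 11.66, 11.68, 11.63 and 11.66 in KO (difference -0.20, limma adjusted p = 0.0574; 0.0285 without KO replicate 1). Stat5a read 11.29, 11.45, 11.42 and 11.37 in WT and 11.16, 11.20, 11.18 and 11.19 in KO (difference -0.20, limma adjusted p = 0.0763; 0.0457 without KO replicate 1). The KO arrays lay below the WT arrays in both genes and within a narrow range. Stat5b, the paralogue of Stat5a, differed by -0.14, also without overlap (limma adjusted p = 0.159). All 5 tested genes of this list had negative differences, where 6905 of 11926 did over all tested genes. Those of Jak1 (-0.01) and Stat6 (-0.04) were small, and none of the 5 passed over all arrays.

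Of the 7 feedback inhibitors, none passed and 4 had positive differences. Cish, a STAT5-induced inhibitor, read 10.58, 10.91, 11.00 and 11.00 in WT and 11.02 to 11.08 in KO, a difference of 0.17 (limma adjusted p = 0.366). The phosphatase gene Ptpn6 differed by -0.115, without overlap (limma adjusted p = 0.25), and the adaptor gene Sh2b3 by -0.18 (limma adjusted p = 0.214). Among 6 adaptor and PI3 kinase genes, Pik3cd, a catalytic subunit of the kinase, had the smallest p, with a difference of -0.14 (limma adjusted p = 0.34).

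Of the 8 listed STAT5 target genes, Bcl2, which protects T cells from death, was the sole gene without overlap between the groups, 11.42 to 11.65 in WT and 11.67 to 11.76 in KO (difference 0.13, limma adjusted p = 0.297). The median of the list was -0.04. In the list of transcription factors studied as regulators of Il7r or of the naive T cell state, none passed over all 8 arrays. All 8 genes had negative differences there, with a median of -0.10, where 6905 of 11926 tested genes had negative differences. Without KO replicate 1, Gfi1 (0.04) and Gabpa (0.03) had positive differences. Klf2, a factor of quiescent T cells, read 9.10, 9.14, 9.14 and 9.25 in WT and 9.03, 8.89, 8.70 and 8.73 in KO (difference -0.32, limma adjusted p = 0.0756). Without KO replicate 1 its difference was -0.38 and passed (limma adjusted p = 0.00848). Foxp1, which competes with Foxo1 at Il7r, differed by -0.15 without overlap (limma adjusted p = 0.14), and Foxo1, an activator of Il7r, by -0.13 with overlap (limma adjusted p = 0.246).

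**Figure D4:**
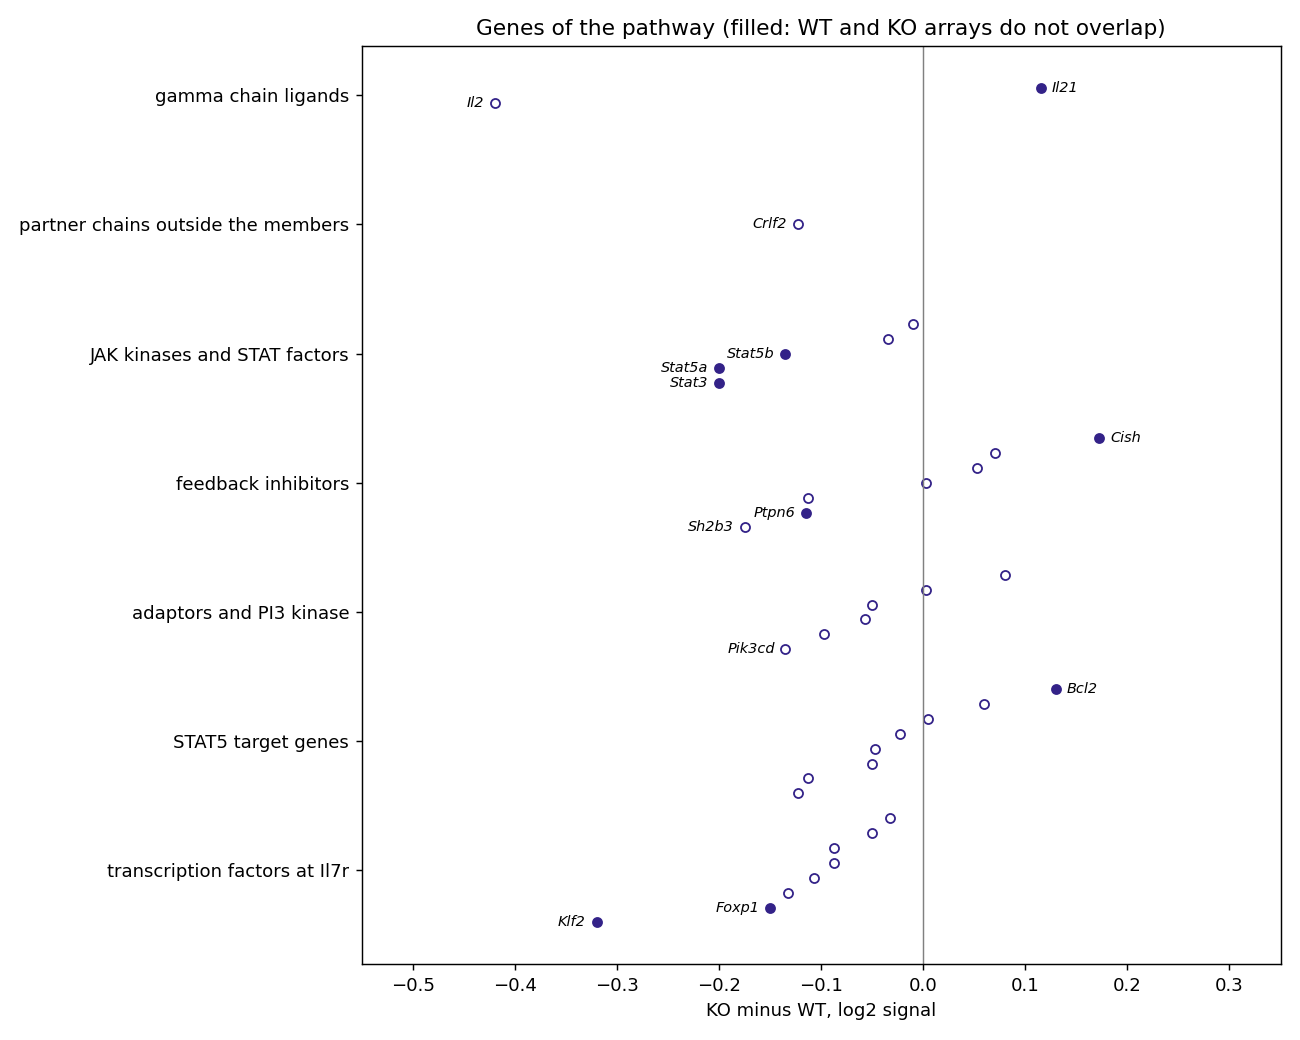
KO minus WT difference in log2 signal (x axis) of the 37 tested pathway genes, grouped by list (y axis); filled points mark genes whose 4 KO and 4 WT values do not overlap, and the genes given in the text by rule are labelled. Il2 has the largest negative difference, -0.42, and all tested transcription factor and JAK-STAT genes lie below 0.

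Genes that mark regulatory T cells, a cell type known for low Il7r and high Il2ra, were read beside these receptors. Of 7 such genes, 1 passed over all 8 arrays and 6 did not, with 5 negative and 2 positive differences, and in 4 the KO values lay below all WT values. Over all tested genes 1.32% passed, 10.8% showed no overlap in either direction, and 6905 of 11926 had negative differences. Foxp3, their defining factor, read 8.21, 8.43, 8.70 and 7.84 in WT and 7.76, 7.51, 7.62 and 7.58 in KO (limma adjusted p = 0.0648). Il7r and Il2ra were both on the high side in KO, Il2ra at 13.30 to 13.41 against 13.19 to 13.28 in WT. Among the WT arrays, replicate 4 had the lowest Foxp3 and the highest Il7r. The highest Foxp3 was in replicate 3 and the lowest Il7r in replicate 1. Gpr83 fell by 0.63 (limma adjusted p = 0.00333), the gene past the threshold, while Ikzf2 and Lrrc32 differed by -0.54 and -0.92 (limma adjusted p = 0.114 and 0.0514). Ctla4, Tnfrsf18 and Nrp1 had overlapping groups and differences of 0.11, -0.05 and 0.43 (limma adjusted p = 0.481, 0.768 and 0.202). Without KO replicate 1, Foxp3 (-0.72 on the log2 scale, limma adjusted p = 0.0304) and Lrrc32 (-0.92, 0.031) passed too, and Nrp1, a receptor of many regulatory T cells, was higher in KO (0.56, 0.0285). The mean log2 signal of the 7 genes was 9.23 to 9.55 in WT and 9.02 to 9.09 in KO. Their part in the Il7r and Il2ra differences was not tested.

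Markers of naive and memory cells were also read beside Il7r. Of 3 tested genes none passed: the lymph node homing receptor gene Ccr7 differed by 0.10, Cd44 by 0.15 and the naive T cell factor gene Lef1 by -0.11, each without overlap (limma adjusted p = 0.267, 0.196 and 0.255). Of all tested genes, 10.8% showed no overlap. Both CD8 genes were above the filter, with differences of -0.04 for Cd8a and 0.03 for Cd8b1 and overlapping groups. None of 6 myeloid and 4 mast cell genes, 1 of 6 NK cell genes (Eomes) and 1 of 5 measured B cell genes (Cd79b) could be tested. Neither Eomes (limma adjusted p = 0.232) nor Cd79b (0.566) passed. The mean signal of the NK cell list was 5.50 to 5.71 in WT and 5.43 to 5.59 in KO, that of the myeloid list 6.14 to 6.28 and 6.29 to 6.31.

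The genes whose values over the 8 arrays were most like each receptor's were found among all tested genes by Pearson's r, as a description. For Il7r these were Bhlhe40, Arf4 and Lrrc61, each with r = 0.97, and r between 0.90 and 0.94 once the group means were removed. Klf2 was most like Il21r (r = 0.97, and 0.91 with group means removed), Rnd2 most like Il2ra (r = 0.97), Snai1 most like Il2rb (r = 0.93), Srebf2 most like Il4ra (r = 0.96) and Tgfb1 most like Il15ra (r = 0.98). The values of a pair come from the same 8 arrays, and each gene was the highest of 11926. Between the receptors themselves r ranged from -0.78 (Il2ra and Il21r) to 0.79 (Il7r and Il15ra), and from -0.34 to 0.63 with group means removed, the last for Il7r and Il4ra.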

How the data were processed

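RNA (100 ng per sample) from 8 cultures was labelled with biotin for Affymetrix arrays, per the labels' protocols. The authors deposited 1 log2 signal per probe set and array, made with RMA and Partek, per the submitters' processing notes. Versions and genome build are not given in the sources used here. RMA usually equalises array distributions, so a change in total RNA per cell is not seen. Arrays were grouped by sample title. Of 35556 probe sets, 21789 had 1 symbol in the platform annotation, and the one with the highest mean stood for a gene.

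The filter kept a gene whose signal exceeded the 40th percentile, taken in each array over probe sets with 1 symbol, in at least 4 arrays, and Bcl6 in any case. The test was limma (version 3.58.1, R version 4.3.3, two-sided), with p-values adjusted by Benjamini-Hochberg across every tested gene and 0.05 as the threshold. The exact permutation test enumerated all splits of 4 against 4 arrays. Precision is limited by the number of arrays. In 10 simulations 200 of 11926 genes were changed, with independent normal errors, which real arrays need not have. There limma recovered 22.0% of changes of 0.25, 84.0% of 0.5 and 96.3% of 0.75. These rates are averages over randomly drawn genes, each with its own spread. They need not hold for a gene whose arrays spread as widely as those of Il7r.

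The receptors and gene lists were chosen with earlier results of these data known. Named beside the receptors were, for each pathway list, the tested gene with the smallest p where none passed, up to 3 genes without overlap, by size of difference, and for each receptor the gene most correlated with it (3 for Il7r; predicted genes and small RNAs left out). Foxo1, Jak1, Stat6 and the marker genes given by value were chosen after their values were seen. Some listed genes are not reported here. Alternatives were another normalization, centring, filters, variance models, array weights, probe set rules, a replicate block, arrays left out and other thresholds.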

Additional observations from a re-analysis of the deposited data

Results flagged for a closer look

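Among 70 groups of 4 arrays, for the named genes, 2 held 1 array far from the other 3, where chance alone gives about 3.5. Il9r in KO replicate 1 read 7.16, with the other KO arrays at 6.72 to 6.76. Bcl2 in KO replicate 4 read 11.76, with the other KO arrays at 11.67 to 11.68.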

How the results depend on the processing

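Differences of the 6 tested receptors kept their sign in all 18 alternative fits. In those that changed only the filter, the variance prior, the probe set rule or the block, the difference could not move. The sign was free to change only under another normalization, centring, array weights or arrays left out. Il9r, under the filter, ranged from -0.08 without KO replicate 1 to 0.07. No receptor was called under a repeated quantile normalization, array centring, no filter, the 50th percentile filter, either probe set rule or the replicate block. An intensity trend with a robust prior called 2 receptors (Il7r 0.76, Il21r -0.23) and 4 pathway genes, where 354 of 11926 tested genes were called. Array weights, 0.176 for KO replicate 1 and up to 3.32, called 3 receptors (Il7r 0.82, Il2ra 0.13, Il21r -0.29) and 10 pathway genes. They called 1980 of the 11926 tested genes. Leaving out KO replicate 1 and WT replicate 3 together called 1 receptor (Il21r, -0.27) and 1 pathway gene, Klf2, among 443 of 11926. A threshold of 0.1 called 2 receptors and 4 pathway genes, among 468 of 11926. Stat3 was the 1 pathway gene called under repeated quantile normalization (322 of 11926 genes called) and under the 50th percentile filter (229 of 9872). With 1 array left out, 0 to 2 receptors and 0 to 3 pathway genes were called, where 31 to 782 of 11926 tested genes were. Il7r then lay between 0.57 and 0.93 and Il21r between -0.28 and -0.20. The cause of these changes was not tested.

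Over all tested genes, 157 were called (77 higher, 80 lower). The count was 322 under repeated quantile normalization, 78 with centred arrays (48 higher, 30 lower), 58 without a filter, 354 with the trend and robust prior, 1980 with array weights, 44 over all probe sets, 443 without KO replicate 1 and WT replicate 3, 27 at a threshold of 0.01 and 468 at 0.1. It was 74, 31, 34 and 107 without WT replicates 1 to 4, and 782, 32, 34 and 68 without KO replicates 1 to 4.

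With the replicate number as a block 36 genes were called. Deviations of same-numbered WT and KO arrays correlated at 0.01, 0.14, -0.17 and 0.31. WT replicates 2 and 4 correlated best with the KO array of their own number, and WT replicates 1 and 3 did not. So few correlations cannot decide whether the numbers pair the arrays.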
